A study of Canis lupus familiaris with 15 samples.

Results

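IL17A and CCL20 are a cytokine of T cells and a chemokine of the epithelium. Their RNA was followed here in skin of 15 dogs, with lupus, with pyoderma or labelled healthy. They were found by matching the RefSeq accession of each probe, without its version, to a dog gene table, which gave NM_001165878.1 for IL17A and NM_001005254.1 for CCL20. They are 2 of 160 probes of a custom NanoString panel, an assay that counts colour-coded reporters bound to RNA without amplification. RNA came from archival, fixed and paraffin-embedded skin biopsies. The discoid lupus (DLE) group held 7 dogs aged 1 to 13 years of mixed sexes and breeds, and the healthy group held 5 samples taken at the margins of leg excisions, whose ages the labels do not give. One dog each had chronic cutaneous lupus with suspected systemic lupus (CCLE, a German Shepherd Dog aged 7 years), mucocutaneous lupus (MLE, an Australian Shepherd aged 6 years) and pyoderma, a bacterial skin infection (a Border Collie aged 9 years). The pyoderma sample was first deposited under a lupus label (DICLE) and was relabelled later. The body site of the lesions and any treatment of the dogs are not given, the healthy samples are re-used from an earlier series, and every column was treated as another dog, on which the meaning of the p-values rests.

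In humans and mice, IL-17A is made mainly by Th17 cells and by gamma delta T cells and acts on keratinocytes through the receptor chains IL17RA and IL17RC. Keratinocytes answer with neutrophil chemokines, antimicrobial peptides and CCL20. CCL20 binds the receptor CCR6, which Th17 cells and immature dendritic cells carry, so the cytokine and the chemokine can sustain one another in inflamed epithelium, as is known from psoriasis. The question was in which of these lesions both genes were raised together.

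Some features of the samples bear on what follows. The panel held from 209889 counts (healthy dog 1) to 675018 counts (healthy dog 3) per dog, and the 14 spike-in control rows held 7.87% to 33.3% of a dog's counts, with 4 of the 5 healthy dogs at the upper end. The background limit of a dog, the mean plus 2 SD of its 8 lowest control rows, lay between 13.6 and 30.0 counts. The control rows that were high differed between samples. One pattern held in the 5 healthy dogs and the CCLE dog (set B) and another in the 7 DLE dogs, the MLE dog and the pyoderma dog (set A), so that set and diagnosis cannot be told apart in DLE against healthy. Panel rows were also compared across the sets by rank. Over the 160 probes the CCLE dog of set B correlated with the DLE dogs of set A at a Spearman rho of 0.81 to 0.94, the MLE dog of set A at 0.84 to 0.92. The DLE dogs correlated with the healthy dogs of set B at 0.61 to 0.81. These ranks cannot show whether the set changed the levels of single panel rows. The keratins KRT1, KRT5 and KRT14 were above background in all 15 dogs. Counts were divided by library sizes scaled by TMM (a trimmed mean over the panel probes) and are then called normalised counts. The TMM factor of DLE dog 3 was 0.445, against 0.975 to 1.46 in the other dogs.

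IL17A was measured above background in 2 of 15 dogs, DLE dog 4 and the MLE dog. DLE dog 4, a German Shorthair Pointer and the oldest dog at 13 years, had an IL17A count of 120, with an exact 95% Poisson interval of 99.5 to 143 and a background limit of 13.6. The MLE dog had a count of 82, and the lower end of its interval (65.2 to 102) lay above every dog's limit. These intervals cover counting error only. The other 13 dogs had IL17A counts of 2 to 13, and in each of them the count was also below the mean of that dog's 8 lowest control rows. Healthy dogs 1 to 5 counted 8, 2, 7, 9 and 7, the 6 other DLE dogs from 2 to 13, the pyoderma dog 7 and the CCLE dog 3. All DLE dogs but dog 4 thus lay with the healthy dogs, and no order can be read among the 13 dogs at background.

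**Figure D1:**
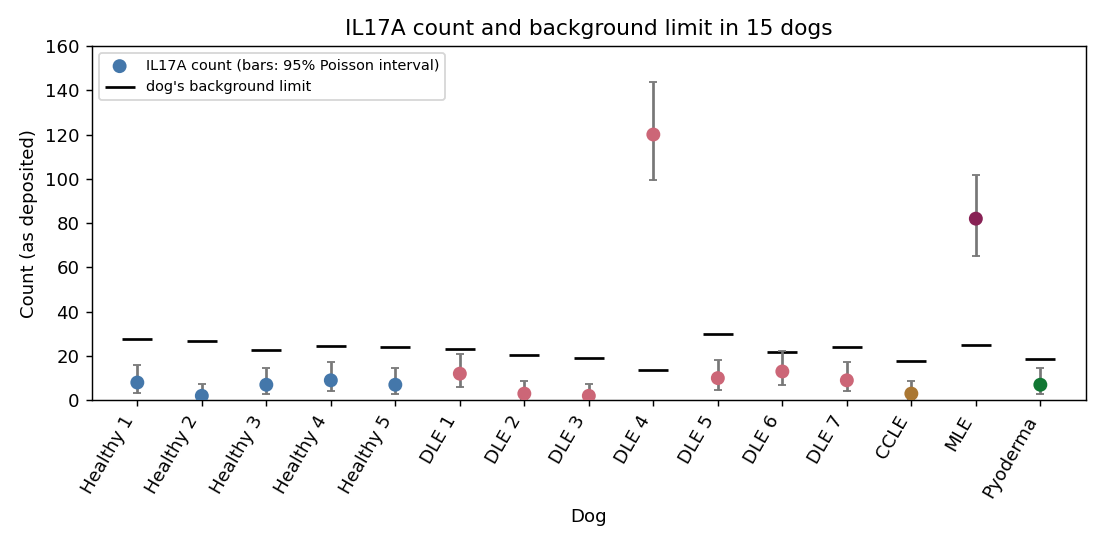
IL17A count as deposited (y axis) in each of 15 dogs (x axis), with the exact 95% Poisson interval as a bar and each dog's background limit as a black dash. DLE dog 4 (120) and the MLE dog (82) lie above their limits, and the other 13 dogs lie below theirs.

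As normalised counts, IL17A stood at 98.0 in DLE dog 4 and at 60.8 in the MLE dog. The highest background limit of a healthy dog was 43.7 on this scale. By the counts alone, without counting error, IL17A was thus at least 2.24-fold higher than in healthy skin in DLE dog 4. In the MLE dog it was at least 1.39-fold higher by the same measure. These bounds moved with the scaling. They were 4.69 and 2.60 with reference genes and 6.18 and 3.44 with the spike-in rows, but 1.03 in DLE dog 4 with the panel median, where the MLE dog (65.2) lay below the highest healthy limit (69.8) and has no bound. On the TMM scale the counting interval of DLE dog 4 began at 81.2, above the end of that of the MLE dog at 75.4. The gap between the 2 dogs depended on the scaling too and was 72.2 against 65.2 when each dog was scaled to the median of its panel. Among the DLE dogs 1 of 7 was above background, against 0 of 5 healthy dogs (Fisher's exact test, two-sided, p = 1), and a stricter limit of 3 SD left the same 2 dogs above it. The level in the 13 dogs is an upper bound and not a measured absence.

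CCL20, in contrast, was above background in all 15 dogs, and its level spanned a wide range. In healthy dogs 1 to 5 it stood at 58.2, 185, 241, 76.6 and 51.7 normalised counts. In the 7 DLE dogs the lowest value was 68.8 (dog 7), the median 218 (dog 2) and the highest 1654 (dog 4). Dogs 4 and 5 alone of the 7 lay above the highest healthy dog, whereas for 25.3% of 158 probes all 7 did so. DLE dog 4 lay 6.22-fold above the next DLE dog, dog 5 at 266, and 6.86-fold above the highest healthy dog. These folds were 7.54 and 12.9 with reference genes, 11.1 and 6.02 with the spike-in rows and 4.72 and 3.69 with the panel median. Apart from dog 4 the DLE dogs averaged 175 ± 73.0 (SD, n = 6), within the spread of the healthy dogs at 123 ± 85.5 (SD, n = 5).

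The 3 single dogs fell in an order for CCL20. The pyoderma dog, at 472 normalised counts (95% counting interval 428 to 520), was the second highest of the 15 dogs, 1.96-fold above the highest healthy dog and 3.50-fold below DLE dog 4. The MLE dog followed at 240 (215 to 268), level with healthy dog 3 at 241 (218 to 266), and the CCLE dog at 148 (125 to 173) lay inside the healthy range. Neighbours below the pyoderma dog, from DLE dog 5 at 266 to DLE dog 2 at 218, could not be separated, since their counting intervals overlapped. The level of the pyoderma dog against healthy dog 3 depended on the scaling. It lay above that dog, the highest of the healthy, by 3.81-fold with reference genes and by 1.51-fold with the panel median, but at 0.94 of it (478 against 511) with the spike-in rows.

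**Figure D2:**
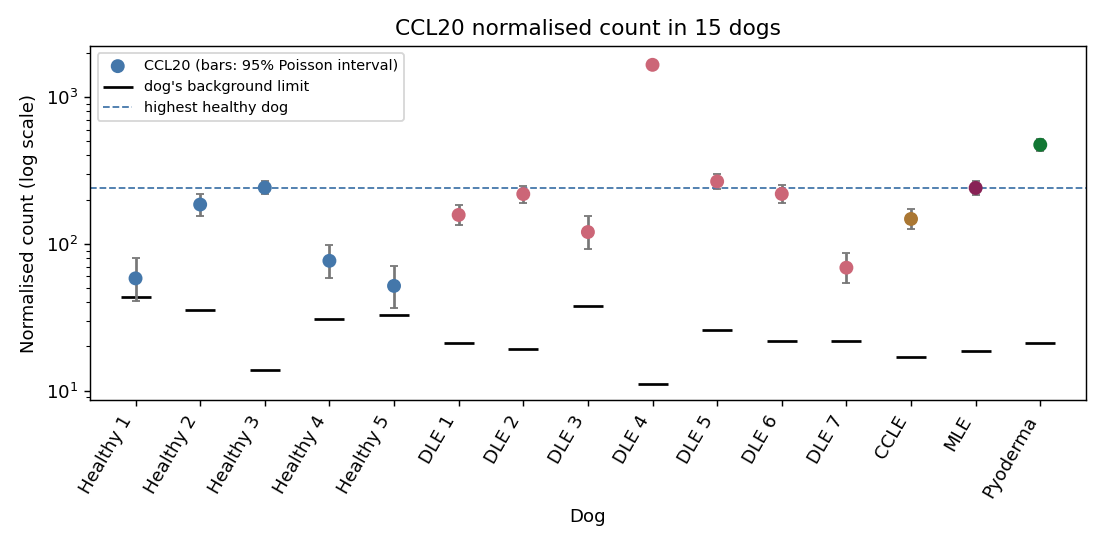
CCL20 normalised count (y axis, log scale) in each of 15 dogs (x axis), with the exact 95% Poisson interval as a bar, each dog's background limit as a black dash and the highest healthy dog as a dashed line. DLE dog 4 (1654) and the pyoderma dog (472) stand above the line, DLE dog 5 (266) just above it, and the other lesional dogs at or below it.

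In the fit over the whole panel, neither gene was called between 7 DLE and 5 healthy dogs, whereas 61.7% of the 154 probes tested were. CCL20 averaged 386 ± 563 normalised counts in DLE (SD, n = 7) and 123 ± 85.5 in healthy skin (n = 5), a log2 difference of 1.65 ± 0.78 (SE, edgeR quasi-likelihood adjusted p = 0.0789). IL17A gave 1.43 ± 0.84 (edgeR adjusted p = 0.153), a value that compares 1 dog above background with 11 below it. Neither gene passed 0.05 before adjustment either, and neither was called by DESeq2, by limma on log2 counts or by limma-voom. The median log2 difference of all probes was 0.42, and relative to it CCL20 differed by 1.23.

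Both values rested on DLE dog 4. Without it the log2 difference of CCL20 was 0.51 ± 0.48 (edgeR adjusted p = 0.372), and that of IL17A was 0.055 (adjusted p = 0.922) in a fit without the filter on low counts, which otherwise dropped the probe. CCL20 was called with the reference genes HPRT1 and RPL13A as the scale (2.45, edgeR adjusted p = 0.0297) and without DLE dog 7 (1.84, adjusted p = 0.0485). The reference genes themselves were lower in DLE on the TMM scale. RPL13A averaged 15334 in DLE and 31090 in healthy dogs, and HPRT1 614 and 811, so scaling to them raises the DLE values of all probes. With the control-row set as a block, in which 9 lupus dogs are compared with 6 control dogs and the pyoderma dog counts as a control, CCL20 was -0.061 ± 0.84 (SE, edgeR adjusted p = 0.968). Within set B the CCLE dog lay 0.55 above the mean of the 5 healthy dogs on the log2 scale, and within set A the 8 DLE and MLE dogs differed from the pyoderma dog by -1.06, values with no test. In bulk skin, more cells that make a transcript and more transcript per cell cannot be told apart.

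**Figure D3:**
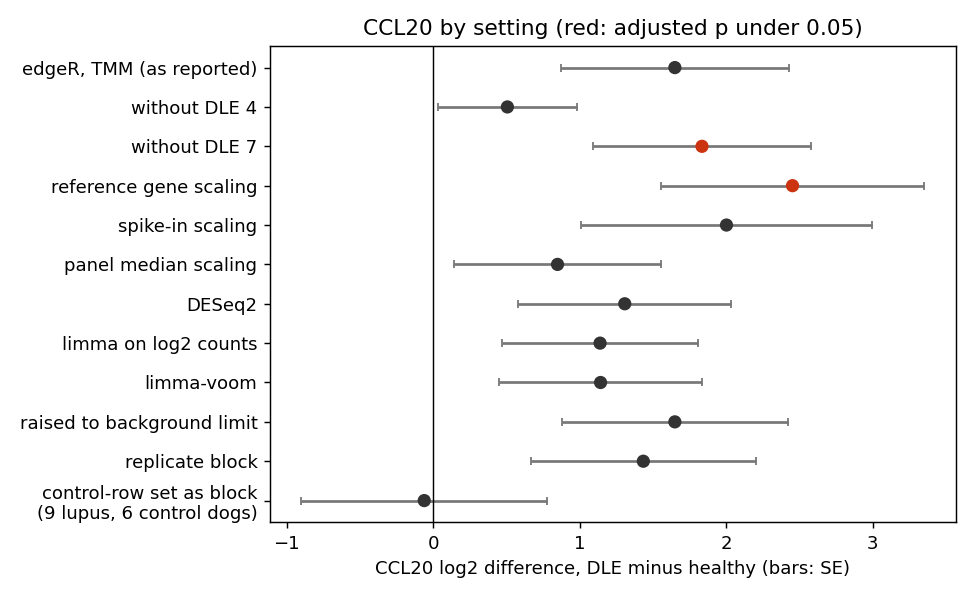
Log2 difference of CCL20 between DLE and healthy dogs (x axis, bars are SE) under 12 settings (y axis), with red points where the adjusted p was under 0.05. The value was 1.65 as reported, 0.51 without DLE dog 4 and 2.45 with reference gene scaling. It was -0.061 with the control-row set as a block, a setting that compares 9 lupus with 6 control dogs instead.

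A gene was taken as up in a lesional dog when it lay above that dog's background limit and above the highest healthy dog. By this rule both genes were up together in 1 of 10 lesional dogs, DLE dog 4. IL17A without CCL20 was up in the MLE dog, CCL20 without IL17A in the pyoderma dog and DLE dog 5, and neither in the other 6 lesional dogs. Many probes met this rule. Of 158 probes it was met by 37.3%, 41.1%, 41.1%, 39.2%, 40.5%, 41.1% and 38.0% in DLE dogs 1 to 7, by 43.0% in the MLE dog, by 41.8% in the pyoderma dog and by 37.3% in the CCLE dog. CCL20 in the MLE dog did not meet it, at 240 against 241 in healthy dog 3, the healthy dog with the most panel counts and the lowest control share (8.04%). With reference gene scaling, or without healthy dog 3, both genes were up in 2 lesional dogs, DLE dog 4 and the MLE dog. The reference gene RPL13A was itself lower in all lesional dogs than in any healthy dog on the TMM scale. The number of lesional dogs up for CCL20 was 3 with TMM, 6 with reference genes, 2 with the panel median and 1 with the spike-in rows. DLE dog 4 was up for both genes under all 4 scalings run, and the CCLE dog and DLE dogs 1, 3 and 7 were up for neither under any of them.

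**Figure D4:**
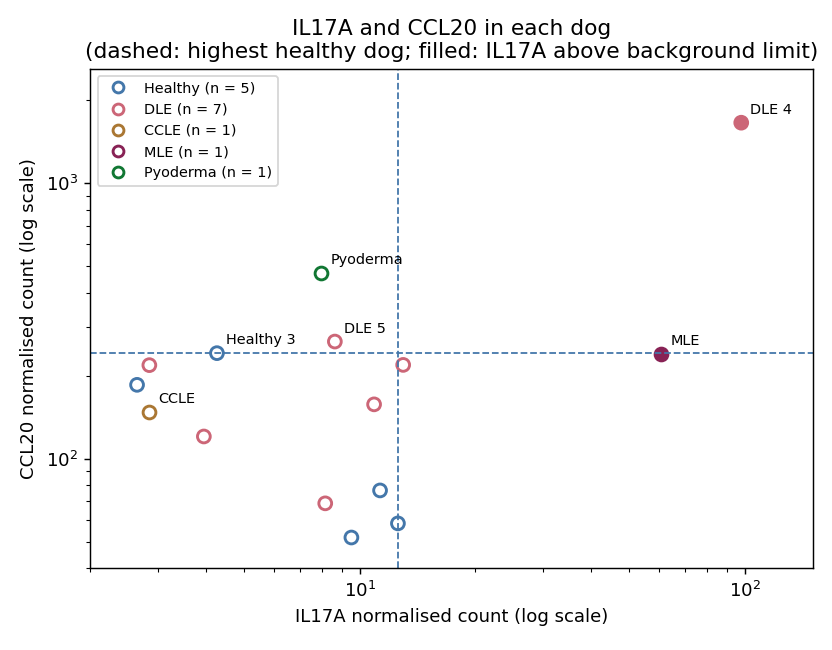
CCL20 against IL17A in each of 15 dogs, both as normalised counts on log axes, coloured by group, with dashed lines at the highest healthy dog and filled points where IL17A was above background. DLE dog 4 (98.0 and 1654) is alone in the upper right, the MLE dog (60.8 and 240) sits on the CCL20 line, and the pyoderma dog (7.97 and 472) is high in CCL20 only.

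Across the 7 DLE dogs the levels of both genes had a Pearson r of 0.81 on log2 values (exact permutation p = 0.0633, adjusted over 2 relations 0.0633) and a Spearman rho of 0.61 (exact permutation p = 0.167, adjusted 0.167). Across the 10 lesional dogs r was 0.65 (permutation p = 0.0475, adjusted 0.0633) and rho 0.54 (permutation p = 0.113, adjusted 0.167). Without DLE dog 4 and the MLE dog, the 2 lesional dogs farthest from the IL17A median, r fell to 0.15 (n = 8, exact permutation p = 0.715). Without DLE dogs 2 and 4 r was 0.40 among the 5 other DLE dogs (exact permutation p = 0.517). Without DLE dog 4 alone r was 0.047 in the DLE dogs and 0.23 in the lesional dogs, whereas it was 0.91 without DLE dog 2 alone (DLE dogs) and 0.75 without the MLE dog alone (lesional dogs). The relation thus rested on DLE dog 4. IL17A was at background in 8 of the 10 lesional dogs, so a graded relation could not be tested.

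Of the 59 genes written down for the IL-17 pathway 10 matched a named probe, and since 88 of the 160 probes have no gene name here, others may be on the panel. Of these 10, 2 rose in DLE, 0 fell and 8 were not called, beside 37.7% higher and 24.0% lower of all 154 probes. Their median log2 difference was 0.70, beside 0.42 over all probes. The 10 include IL17A (1.43) and CCL20 (1.65) themselves, which both lie above this median and rested on DLE dog 4. The median is thus no separate evidence on the pathway. No IL-17 receptor gene and no other IL-17 family member on the list matched a probe by name. Among inducers, IL12B, which encodes the subunit shared by interleukins 12 and 23, rose by log2 1.40 ± 0.35 (edgeR adjusted p = 0.00306), but not with panel median scaling (0.66). TNF, a cytokine that acts together with IL-17A on keratinocytes, rose by 1.81 ± 0.29 (edgeR adjusted p = 0.000176), and was called under all 23 alternatives run. IL1B (0.85) and IL6 (-1.44), cytokines that help Th17 cells to form, and IL21 (0.54), a cytokine that these cells make, were not called, though IL1B and IL21 were called higher with reference gene scaling (1.63 and 1.23), and IL6 was called lower with limma-voom (-2.06). IL1B turned to -0.60 with the control-row set as a block, which compares 9 lupus with 6 control dogs instead. IL21 turned to -0.18 with panel median scaling and to -0.28 with counts raised to the background limit. The targets CXCL8, a neutrophil chemokine (0.014), CCL2 (-1.04) and CCL7 (-1.28), both monocyte chemokines, were not called either, and the sign of CXCL8 turned under 8 of 23 alternatives (-0.54 with panel median scaling, -1.15 with the control-row set as a block). CCL2 was called lower under 6 alternatives, with panel median scaling (-1.70), with DESeq2 (-1.38) and without DLE dog 2 or 4 or healthy dog 1 or 4 (-1.20 to -1.23). CCL7 was called lower under 3, with panel median scaling (-1.88), with limma-voom (-2.10) and without DLE dog 5 (-1.90).

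CXCL8 and IL1B were the genes of this list that had the same 2 highest lesional dogs as IL17A. CXCL8 stood at 20698 normalised counts in the MLE dog and at 5676 in DLE dog 4, the highest and second highest of the 10 lesional dogs, against 217, 5069, 3963, 437 and 5204 in healthy dogs 1 to 5. The other DLE dogs held 277 to 4547, the pyoderma dog 3198 and the CCLE dog 350. IL1B, the cytokine interleukin 1 beta, stood at 710 in the MLE dog and 282 in DLE dog 4, again the 2 highest lesional dogs, followed by DLE dog 3 at 252, while healthy dogs held 32.7 to 131. The MLE dog thus led for CXCL8 and IL1B, whereas DLE dog 4 led for IL17A and CCL20. Of 158 probes, 1.90% had these 2 dogs as the highest lesional dogs and above background, namely IL17A, CXCL8 and IL1B. By the rule for a gene being up, 1.27% were up in these 2 lesional dogs alone, namely IL17A and CXCL8. The 2 dogs were picked by their IL17A, so IL17A enters both shares by that choice. CXCL8 in DLE dog 4 exceeded the highest healthy dog by 1.09-fold only.

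DLE dog 4 was also the highest lesional dog for IL12B, at 207 normalised counts where DLE dogs other than dog 4 held 55.5 to 98.7. For IL21, a gene above background in 5 of 15 dogs, its 31.0 was barely above DLE dogs 3 (29.6), 5 (29.3) and 1 (29.1). DLE dog 4 was the second highest for TNF (291, after the CCLE dog at 346) and for IL6 (707, after DLE dog 5 at 842). IL6 in healthy dog 5 was higher still, at 2039. In all, DLE dog 4 was the highest of the 10 lesional dogs and above background for 8.86% of 158 probes. On the log2 scale CCL20 in DLE dog 4 lay 3.36 above the mean of the 6 other DLE dogs, where the median of such differences over 158 probes was -0.12. By its count alone, IL17A in DLE dog 4 was 2.59-fold above the highest background limit of the 6 other DLE dogs (1.85-fold with the panel median). All 6 were at background. CCL20 lay 1.24 above the healthy mean in the MLE dog and 2.22 above it in the pyoderma dog on the log2 scale. Against the mean of the DLE dogs, dog 4 included, these differences were 0.10 and 1.08.

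**Figure D5:**
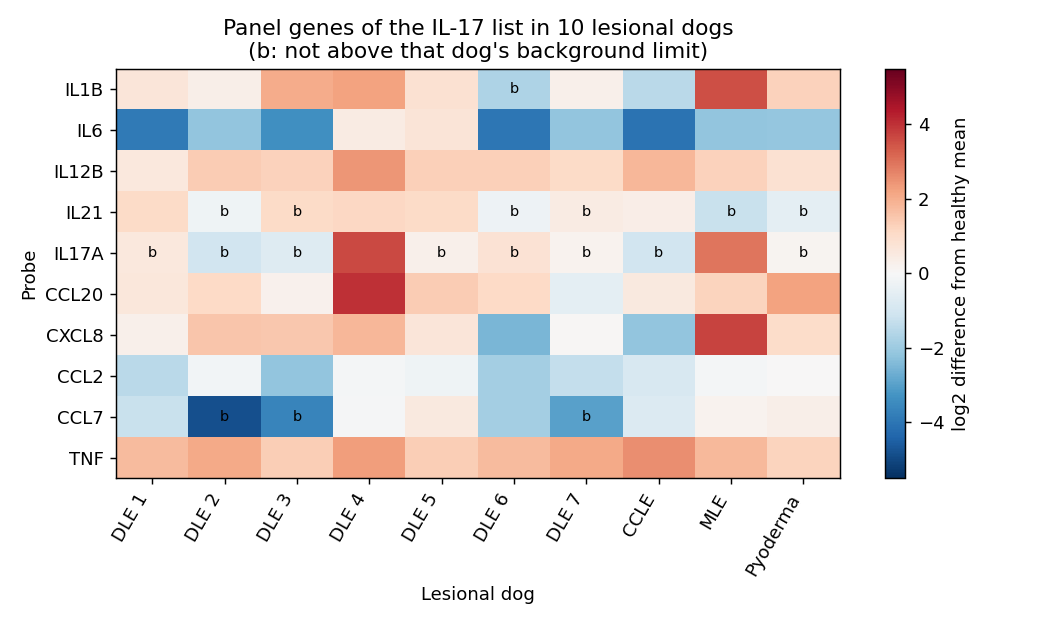
Log2 difference from the healthy mean (colour) of the 10 panel genes of the IL-17 list (rows) in 10 lesional dogs (columns), with b where the count was not above that dog's background limit. IL17A is high in DLE dog 4 and the MLE dog, CCL20 is highest in DLE dog 4, and CXCL8 and IL1B are highest in the MLE dog. The healthy dogs were at background for IL17A, so the size of its differences is not measured.

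The T cell genes CD40LG, a ligand on activated helper T cells, and FOXP3, of regulatory T cells, lay in DLE dog 4 inside the range of the other DLE dogs (26.6 to 98.7 and 17.7 to 85.1 normalised counts), and stood at 41.5 and 43.0 in the MLE dog. They were the only T cell genes of 9 written that matched a named probe. DLE dog 4 was the lowest of the 7 DLE dogs for KLRD1, a receptor of NK and cytotoxic T cells (84.9), and for MS4A1, the B cell gene of CD20 (81.6). None of the 8 neutrophil markers written matched a named probe, so no neutrophil marker could be set beside CXCL8 here. The keratinocyte genes KRT5 and KRT14 in DLE dog 4, at 38904 and 18609, ranked 6 of 7 among the DLE dogs, whereas KRT1 at 28222 was the median, rank 4. CD163, of macrophages, stood at 633 in DLE dog 4, 1080 in the MLE dog and 1889 in the pyoderma dog, the highest lesional value. The part of these cell types in the levels of IL17A and CCL20 was not tested. Of 14 marker genes tested 6 were higher in DLE (CD40LG, FOXP3, KLRD1, MS4A1, CD86 and KRT14), 3 were lower (CD163 and the mast cell genes KIT and MS4A2) and 5 were not called, shares near the 37.7% higher and 24.0% lower of all probes. The 3 lower calls ended with reference gene and with spike-in scaling (log2 -0.75 and -1.07 for CD163, -0.017 and -0.35 for KIT, 0.068 and -0.21 for MS4A2). Those of CD40LG (0.85) and FOXP3 (0.76) ended with counts raised to the background limit. KRT14 (-0.031), KIT (-0.051) and CD86 (0.86) were not called with the set as a block. That fit is another contrast, of 9 lupus with 6 control dogs, the pyoderma dog among the controls. Panel median scaling ended the call of KRT14 (0.67), and the replicate block those of KIT (-0.72) and MS4A2 (-0.58). Omitting 1 healthy dog ended the call of KRT14 (dog 2, 3 or 5), KIT (dog 5) or MS4A2 (dog 1).

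The probes most like CCL20 over the 10 lesional dogs, among 58 named probes above background in at least 5 of them, were CCL2 and CCL7 (Spearman rho 0.71 each), CCL8 (0.66), CCL13 (0.61) and IL6 (0.56). CCL2, CCL7, CCL8 and CCL13 are monocyte chemokines of close sequence, and whether a probe binds more than 1 of them was not tested. Their probes did not always rise together. CCL2 and CCL8 were above background in all 15 dogs, CCL13 in 13 and CCL7 in 12. In DLE dog 2 CCL7 had a count of 4, at background, beside 3512 for CCL2, 907 for CCL8 and 160 for CCL13. CCL8 shared the leading dog with CCL20, at 1464 in DLE dog 4 where DLE dogs other than dog 4 held 67.0 to 861, with 784 in the MLE dog, 587 in the pyoderma dog and 103 to 401 in healthy skin. CCL2, by contrast, was highest in healthy dog 2 (8719). For IL17A the most alike of 59 were CCL20 (0.54), IL1B (0.41), CCL7 (0.38), CXCL12, a stromal chemokine (0.31), and OXTR, the oxytocin receptor (0.28). These ranks include 8 lesional dogs whose IL17A was at background, and all values share one scaling factor per dog, so they describe these 10 dogs alone.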

How the data were processed

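The authors deposited 1 table of raw, whole-number counts, and which software produced them is not given in the sources used here. Per the labels' protocols, 30 micron curls were extracted with a Qiagen kit for fixed tissue. Accessions were matched to a RefSeq gene table (assembly UU_Cfam_GSD_1.0, for names alone), which named 72 of 160 probes. The files name no build, so no coordinates are given, and no sequences were at hand.

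Scaling used TMM factors over the non-control rows of all 15 dogs. edgeR 4.0.16 (filterByExpr, glmQLFit, glmQLFTest, two-sided, Benjamini-Hochberg, threshold 0.05) compared 7 DLE with 5 healthy dogs over 154 of 158 probes, with HPRT1 and RPL13A left out as reference genes. IL17A and CCL20 both passed the filter, IL17A in part through DLE dog 4. Correlations were taken on log2(normalised count + 1), with 100000 resamples for 10 dogs and every pairing for fewer. DESeq2 1.42.0 and limma 3.58.1 were alternatives, DESeq2 with its default handling of outlier counts. Tested on simulated data with the sizes of this comparison, DLE against healthy (154 probes, 40 changed, 20 runs) the edgeR step recovered 32.5% of 2-fold and 88.5% of 4-fold changes, with 3.39% false calls. Pairs of columns within a group differed by far more than counting noise (chi-square over its degrees of freedom at least 163). The genes and lists were chosen with earlier results of these data known. The genes named are IL17A, CCL20, the members of the IL-17 and cell type lists on the panel, the reference genes, and for each of IL17A and CCL20 the 5 named probes most like it.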

Additional observations from a re-analysis of the deposited data

Results flagged for a closer look

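In 60 groups of named genes (30 genes in 7 DLE and in 5 healthy dogs), 5 had a dog separated from the others by more than Dixon's 95% criterion allows. For normally distributed values chance flags about 1 in 20 groups. The criterion was applied here to normalised counts without logs, for genes partly chosen from these data, so that rate may not hold. Of the 5 flags, 3 were DLE dog 4, for CCL20 (1654 normalised counts, next DLE dog 266), IL17A (98.0, next 13.0, at background) and IL12B (207, next 98.7). The other two were healthy dog 5, for IL6 (2039, next 596) and for CD40LG, where it was the lowest (8.17, next 15.8) and at background as were 3 other healthy dogs.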

How the results depend on the processing

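IL17A was above background in the same 2 dogs under all 3 limits tried, and CCL20 in all 15. Of 23 alternatives for CCL20 in DLE against healthy, 20 kept its direction without a call. It was called with reference gene scaling (2.45) and without DLE dog 7 (1.84). With the control-row set as a block, which compares 9 lupus with 6 control dogs, it was -0.061 ± 0.84 (SE). With 1 dog left out it ranged from 0.51 to 2.05. Relative to the median of all probes it lay between 1.10 and 1.39 under the TMM, reference gene, spike-in, panel median and DESeq2 scalings. IL17A was -0.12 with DESeq2, which by default can replace an outlier count in a group as large as DLE. Whether it replaced the count of DLE dog 4 was not tested. IL17A was 0.17 with counts raised to the background limit, 0.36 with the set block and 6.69 with the background mean subtracted (no filter, no call). With 1 dog left out it ranged from 0.055 to 1.64. It was called only in fits added after seeing the data, without the filter on low counts, scaled to the reference genes (2.33) or to the spike-in rows (2.44). With the control-row set as a block 40 probes were called in place of 95, and 91 to 98 with 1 dog left out. The share of calls that were higher was 61.1% with TMM, 50.9% with DESeq2, 40.7% with the panel median, 76.7% with spike-ins, 82.8% with reference genes and 85% with the set block. The r of both genes passed 0.05 unadjusted in DLE dogs with reference gene scaling (0.84) and without DLE dog 2 (0.91), and did not in lesional dogs with counts raised to the background limit (0.63) or without DLE dog 1, 3, 4, 5 or 6 or the CCLE dog. With 1 dog left out it ranged from 0.047 to 0.91 in DLE dogs and from 0.23 to 0.75 in lesional dogs, lowest without DLE dog 4. Both genes were up together in 2 dogs with reference gene scaling, and in 1 to 2 with 1 healthy dog left out, an alternative added after seeing the data. The replicate block (5 pairs of equal number, correlations -0.14 to 0.18, so that the dogs share only a number) gave 1.43 for CCL20, 0.73 for IL17A and 89 calls. The causes were not tested.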
